A study of Homo sapiens with 14 samples.

Results

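The genes described here are the type 2 cystatin genes CST1, CST2, CST3, CST4, CST5, CST6 and CST7, matched by symbol in a table of 19410 genes. All 7 were in the table. The set was chosen by its RNA level in the SAP30-KO lines against parental cells, where CST2 had the highest mean rise of all genes tested, and the other members were taken as its relatives and chromosome neighbours. Their values in SAP30-KO against parental cells are therefore given as a description, with no test. The cells were MDA-MB-231, a human triple-negative breast cancer line, either parental or edited with CRISPR/Cas9, with a pair of lines labelled SAP30-KO1 and SAP30-KO2, a pair labelled SIN3A+SIN3B-DKO1 and SIN3A+SIN3B-DKO2, and a pair labelled MLL1-KO1 and MLL1-KO2. Knockout cells also received a guide RNA vector and puromycin selection, according to the methods of the study. The control libraries are labelled parental and no vector control is named. Effects of the edits therefore cannot be told apart from those of vector, selection and cloning in comparisons with parental cells. Each of the 7 conditions had 2 RNA-Seq libraries, 14 in all. Per the methods of the study, an edited line is not a single clone but a pool of knockout clones, tested for loss of the protein. The labels do not say whether the 2 libraries of a line came from separate cultures, so p-values measure only the spread between these libraries, which may be technical.

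Type 2 cystatins are small secreted proteins with a signal peptide that block cysteine proteases of the papain family, such as the lysosomal cathepsins, by plugging the active-site cleft. CST3 encodes cystatin C, the widely expressed inhibitor found in most body fluids. CST1, CST2, CST4 and CST5 encode cystatins SN, SA, S and D, which are best known from saliva and tears. CST6 encodes cystatin E/M, an inhibitor of legumain and cathepsins in skin and breast epithelium that is often silenced in breast tumors, and CST7 encodes cystatin F, a mainly leukocyte protein that acts inside lysosomes.

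Of the 7 members, 5 lay side by side on the minus strand of chromosome 20 within 253.0 kb, chr20:23607343-23860385 on GRCh37, in the order CST3, CST4, CST1, CST2 and CST5. CST3 was annotated at chr20:23607343-23619110, CST4 at chr20:23666277-23669675, CST1 at chr20:23728199-23731905, CST2 at chr20:23804406-23807366 and CST5 at chr20:23856571-23860385. The gaps between neighbours ran from 47.2 to 72.5 kb. CST7 was on the plus strand of the same chromosome, at chr20:24929905-24940564, 1069.5 kb from the cluster, and CST6 was on chromosome 11, at chr11:65779479-65780976 on the plus strand.

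CST1, CST2 and CST4 are near copies of each other, which bears on every value given for them. Over their coding sequences CST1 and CST2 were 91.3% identical, CST1 and CST4 92.7%, and CST2 and CST4 92.4%, whereas all other pairs of members were from 48.8 to 74.2% identical. The first 120 coding bases of CST2 and CST4, from the start codon on, are shown because they let a reader see how close such a pair is and where it parts. They come from the annotated transcripts on GRCh37, at chr20:23807178-23807297 for CST2 and chr20:23669487-23669606 for CST4, both on the minus strand, and capitals mark the 17 bases of CST4 that differ from CST2.
CST2: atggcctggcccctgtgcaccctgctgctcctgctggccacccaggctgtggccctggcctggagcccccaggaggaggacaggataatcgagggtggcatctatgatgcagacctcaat
CST4: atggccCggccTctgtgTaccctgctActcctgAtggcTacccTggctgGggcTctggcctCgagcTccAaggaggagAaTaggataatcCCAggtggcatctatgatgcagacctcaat
Of all stretches of 75 bases in its transcript, CST1 shared 13.9% with another member, CST4 13.9% and CST2 1.93%. At 50 bases the shares were 27.4%, 30.0% and 8.32%. CST3, CST6 and CST7 shared none at either length. How reads matching several genes were counted, and the read length, are not given in the sources used here, so a part of the reads of CST1 and CST4 could have been split between them or dropped.

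The libraries held from 18415018 to 23162678 reads assigned to genes, with a median of 21648517, as recovered from the deposited values. In TPM, a level per transcript length that adds up to a fixed total in each library, SAP30 was 78.9 and 82.8 in parental cells and 2.75 to 4.96 in the SAP30-KO libraries. MLL, the table's name for the gene of MLL1, was 56.7 and 49.0 in parental cells and 15.8 to 27.7 in the MLL1-KO libraries, and it was 23.0 to 35.4 in the SAP30-KO libraries. SIN3B was 75.1 and 77.4 in parental cells and 43.5 to 50.2 in the SIN3A+SIN3B-DKO libraries. SIN3A RNA was not lower, at 43.1 and 45.4 in parental and 55.1 to 62.5 in the libraries labelled SIN3A+SIN3B-DKO. The study tested the knockout by immunoblot of the proteins, which an RNA level does not measure. VIM, a mesenchymal marker of this line, was 5741 to 8805 TPM, and ESR1, the estrogen receptor gene that it lacks, was at most 0.191 TPM in the 14 libraries.

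CST2 was the lowest of the 3 near copies in parental cells. It was at 5.01 and 4.11 TPM in parental cells. The SAP30-KO1 libraries had 81.3 and 81.0 TPM, those of SAP30-KO2 64.3 and 70.2, those of SIN3A+SIN3B-DKO1 17.0 and 15.5, those of SIN3A+SIN3B-DKO2 9.41 and 11.2, those of MLL1-KO1 12.2 and 19.4, and those of MLL1-KO2 25.1 and 31.1. The SAP30-KO libraries were the highest and the parental libraries the lowest, with no overlap between parental and any edited line. The order of the means was SAP30-KO1, SAP30-KO2, MLL1-KO2, SIN3A+SIN3B-DKO1, MLL1-KO1, SIN3A+SIN3B-DKO2 and parental, in which only SIN3A+SIN3B-DKO1 and MLL1-KO1 overlapped as neighbours. The parental level rested on 25 and 20 reads, against 373 to 436 reads in the SAP30-KO libraries.

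CST1 had the highest TPM of the 3 in every condition. It was at 19.4 and 18.2 TPM in parental cells. The SAP30-KO1 libraries had 236 and 258 TPM, those of SAP30-KO2 261 and 290, those of SIN3A+SIN3B-DKO1 136 and 141, those of SIN3A+SIN3B-DKO2 59.7 and 62.4, those of MLL1-KO1 52.5 and 57.8, and those of MLL1-KO2 219 and 227. No pair of conditions next to each other in the order of levels overlapped. MLL1-KO2 lay just under SAP30-KO1, and MLL1-KO1 lay just under SIN3A+SIN3B-DKO2, so the 2 MLL1-KO lines were far apart for this gene.

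CST4 was at 15.9 and 15.7 TPM in parental cells. The SAP30-KO1 libraries had 121 and 136 TPM, those of SAP30-KO2 128 and 148, those of SIN3A+SIN3B-DKO1 79.0 and 86.1, those of SIN3A+SIN3B-DKO2 48.3 and 37.1, those of MLL1-KO1 13.0 and 16.6, and those of MLL1-KO2 32.3 and 37.3. The MLL1-KO1 libraries lay on either side of the parental ones. SIN3A+SIN3B-DKO2 overlapped MLL1-KO2, and the 2 SAP30-KO lines overlapped each other.

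CST3, the cystatin C gene, was the most abundant member in all libraries. It was at 523 and 503 TPM in parental cells. The SAP30-KO1 libraries had 743 and 728 TPM, those of SAP30-KO2 811 and 812, those of SIN3A+SIN3B-DKO1 559 and 552, those of SIN3A+SIN3B-DKO2 505 and 492, those of MLL1-KO1 483 and 526, and those of MLL1-KO2 756 and 795. The SAP30-KO and MLL1-KO2 libraries were all above the other 8, which lay between 483 and 559 TPM. Parental, MLL1-KO1 and SIN3A+SIN3B-DKO2 overlapped.

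The remaining members were at or near the limit of detection, and a single read of these genes was worth a sizeable part of the values given. CST5 had 0 reads in all 10 parental, SAP30-KO and SIN3A+SIN3B-DKO libraries, while the MLL1-KO1 libraries had 7 and 6 reads (1.15 and 0.997 TPM) and the MLL1-KO2 libraries 8 and 12 (1.58 and 2.23 TPM). CST6 had 5 and 1 reads in the parental libraries, 0 to 2 in the SIN3A+SIN3B-DKO libraries, 0 or 1 in the SAP30-KO libraries and 0 in all MLL1-KO libraries, with a highest value of 1.14 TPM. It did not pass the filter on low values and no fold is given for it.

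CST7 stood out in MLL1-KO2. It was at 2.09 and 0.768 TPM in parental cells. The SAP30-KO1 libraries had 1.05 and 0.971 TPM, those of SAP30-KO2 1.42 and 0.788, those of SIN3A+SIN3B-DKO1 0.633 and 0.398, those of SIN3A+SIN3B-DKO2 0.639 and 0.261, those of MLL1-KO1 0.396 and 0.134, and those of MLL1-KO2 9.21 and 10.0. Both MLL1-KO2 libraries, with 58 and 67 reads, lay above all 12 others, which had from 1 to 14 reads. The 2 parental libraries differed more from each other, at 14 and 5 reads, than any other pair of this gene in TPM.

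**Figure D1:**
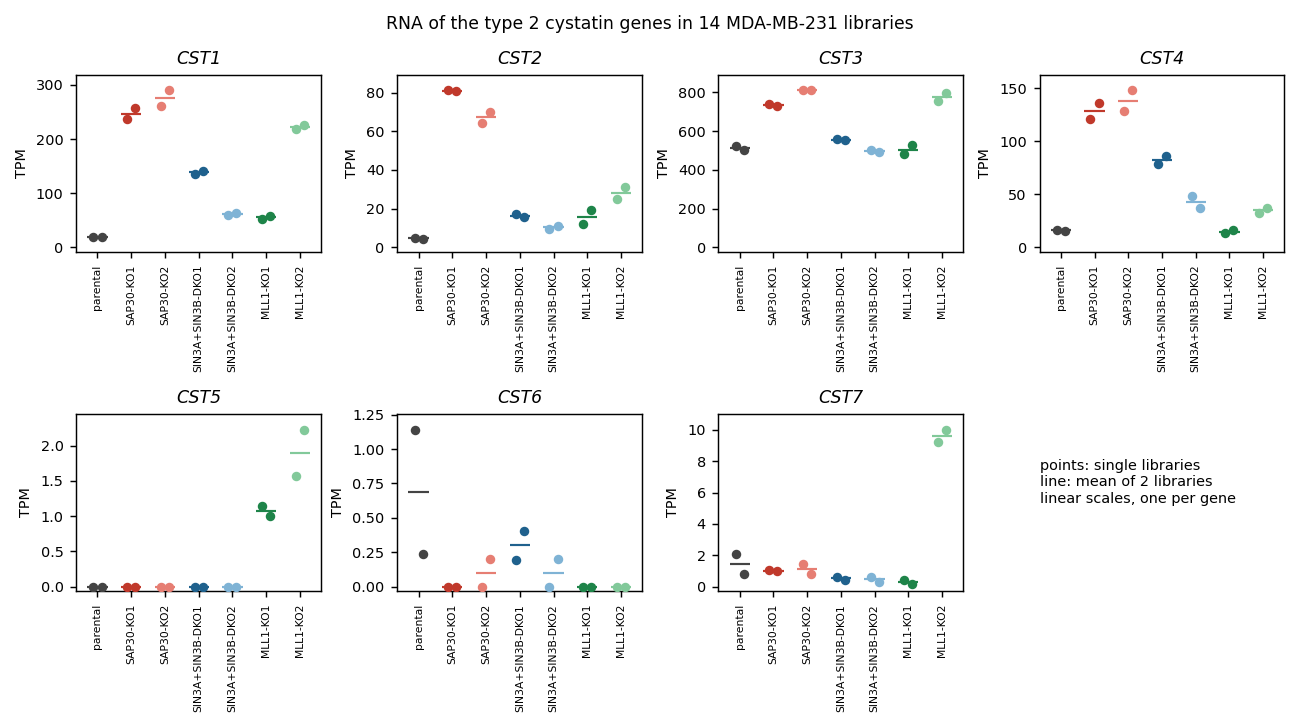
TPM of each type 2 cystatin gene (vertical axis, linear, one scale per gene) in the 7 conditions (horizontal axis), with a point for each library and a line at the mean of 2 libraries. CST1, CST2 and CST4 are highest in the SAP30-KO lines, CST5 is above 0 only in the 4 MLL1-KO libraries, and CST7 is at 9.21 and 10.0 TPM in MLL1-KO2 against at most 2.09 elsewhere.

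Differences were fitted on log2(TPM + 0.5) with limma, which understates the changes of low genes, and a gene was called when its adjusted p was under 0.05 and its change at least 1.5-fold. Of the 7 members, 6 passed the filter of at least 1 TPM in 2 libraries, and CST5 passed only through the MLL1-KO libraries. In SAP30-KO1 the log2 fold changes from parental were 4.02 for CST2, 3.68 for CST1, 2.98 for CST4 and 0.52 for CST3. In SAP30-KO2 they were 3.75, 3.84, 3.09 and 0.66. As ratios of mean TPM, CST2 was 17.8 times and 14.7 times the parental level in the 2 lines, CST1 13.1 and 14.7 times, and CST4 8.12 and 8.76 times. From the highest log2 fold change down, among 13540 genes tested, CST2 was number 1 and 3 in the 2 lines, CST1 number 3 and 2, and CST4 number 8 in both. Counting by the same rule, 3 members were called in SAP30-KO1, all higher, where 15.7% of all genes tested were called, 7.8% higher and 7.86% lower. In SAP30-KO2 there were 4, all higher, where 15.6% were called, 7.44% higher and 8.12% lower. The choice of members used these values, and nothing is read from the counts.

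The SIN3A+SIN3B-DKO and MLL1-KO lines were tested against parental libraries that also entered the contrast behind the choice of members. Low parental values that favoured the choice would also enlarge the rises in these lines. The p-values against parental cells do not allow for this. In SIN3A+SIN3B-DKO1, CST1 rose by 2.85 ± 0.07 on the log2 scale (SE, limma adjusted p = 4.5e-10), CST4 by 2.35 ± 0.14 (adjusted p = 2.7e-07) and CST2 by 1.73 ± 0.18 (adjusted p = 1.7e-05). These 3 were the members called there, where 16.4% of all genes tested were called, 7.76% higher and 8.66% lower. In SIN3A+SIN3B-DKO2 the rises of the same genes were 1.67, 1.39 and 1.09, with adjusted p of 2.7e-08, 1.3e-05 and 0.00051, and 13.6% of all genes were called, 6% higher and 7.56% lower. CST3 was not called in either line, at log2 fold changes of 0.12 and -0.04 ± 0.04.

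CST1 and CST2 also rose in both MLL1-KO lines, against the same parental libraries and with the same limit on the p-values. CST1 rose by 1.53 ± 0.07 in MLL1-KO1 (limma adjusted p = 8.2e-09) and by 3.53 ± 0.07 in MLL1-KO2 (adjusted p = 1.4e-11), and CST2 by 1.66 ± 0.18 (adjusted p = 1.5e-05) and 2.50 ± 0.18 (adjusted p = 4.9e-07). CST4 rose in MLL1-KO2, by 1.11 ± 0.14 (adjusted p = 3.6e-05), and was not called in MLL1-KO1, where the log2 fold change was -0.10 with a 95% interval from -0.41 to 0.20. CST3 rose in MLL1-KO2 by 0.59 ± 0.04 (adjusted p = 3e-07), close to the fold minimum, and was at -0.03 ± 0.04 in MLL1-KO1. In all, 3 members were higher and 1 lower in MLL1-KO1, with 23.2% of all genes called, and all 6 tested members were higher in MLL1-KO2, with 25.2% called. CST5, which passed the filter only through the MLL1-KO libraries and so had to differ, is among the higher members in both counts. Of all genes tested, 6.89% were called higher and 16.3% lower in MLL1-KO1, and 10.2% higher and 14.9% lower in MLL1-KO2. Quantile normalization changed the share of lower genes among the calls from 70.3 to 52.8% in MLL1-KO1 and from 59.3 to 49.3% in MLL1-KO2, and it took CST3 below the fold minimum in MLL1-KO2, at 0.55.

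CST5 and CST7 were called on few reads. CST5 had 0 reads in each parental library, where a floor of 3 reads was set. Its mean was 1.90 times this floor in MLL1-KO1 and 3.37 times it in MLL1-KO2. Counting error in its own 6 to 12 reads is not included in these ratios. CST5 passed the filter only because it was above 0 in the MLL1-KO libraries, so no p is given for it. CST7 rose by 2.48 ± 0.34 on the log2 scale in MLL1-KO2 (adjusted p = 7.5e-05), a ratio of 6.69 by reads with an exact 95% counting interval from 4.11 to 11.5. In MLL1-KO1 the 2 libraries had 4 CST7 reads together against 19 in parental, a ratio of 0.185 with a counting interval from 0.0457 to 0.556, and the fitted fall was called at -1.27 ± 0.34 (adjusted p = 0.0077). The fall in SIN3A+SIN3B-DKO2, at -0.96 ± 0.34, was called at an adjusted p of 0.036, and the value in SIN3A+SIN3B-DKO1, -0.85 ± 0.34, was not (adjusted p = 0.054). Without parental replicate 1, the library with 14 CST7 reads, the values in MLL1-KO1, SIN3A+SIN3B-DKO2 and SIN3A+SIN3B-DKO1 were -0.75, -0.45 and -0.33, none was called, and the SAP30-KO values turned from -0.27 and -0.21 to 0.25 and 0.31.

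**Figure D2:**
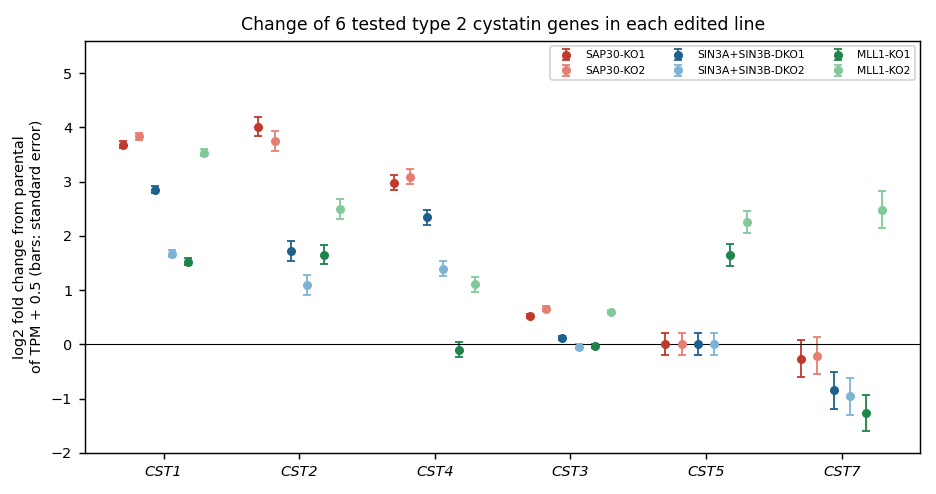
Log2 fold change of TPM + 0.5 from parental (vertical axis) for the 6 tested members (horizontal axis), with a point per edited line and bars of 1 standard error from limma. CST1 and CST2 are above 0 in all 6 lines, CST4 in all but MLL1-KO1, where it is at -0.10, and CST7 is above 0 only in MLL1-KO2.

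The means compared among the SIN3A+SIN3B-DKO and MLL1-KO lines came from no library of the contrast behind the choice of members. Their standard errors and p-values came from the fit to all 14 libraries, which includes those of that contrast. Between the 2 MLL1-KO lines all 6 tested members were higher in MLL1-KO2, where 10.4% of all genes were called, 7.15% higher in MLL1-KO2 and 3.27% higher in MLL1-KO1. In MLL1-KO1 minus MLL1-KO2, the log2 difference was -3.75 ± 0.34 for CST7 (limma adjusted p = 9.7e-06), -2.01 ± 0.07 for CST1 (adjusted p = 7.3e-09), -1.21 ± 0.14 for CST4 (adjusted p = 5.1e-05) and -0.84 ± 0.18 for CST2 (adjusted p = 0.0036). CST3 was near the fold minimum, at -0.62 ± 0.04 (adjusted p = 9.3e-07). CST5, counted among the 6, was near it as well, at -0.60 ± 0.20. It passed the filter only through the MLL1-KO libraries, so no p is given for it. The libraries of the 2 lines did not overlap for any of the 6 genes, and of all genes tested 43.2% had both MLL1-KO2 libraries above both of MLL1-KO1. MLL, the targeted gene, was itself lower in MLL1-KO1, at 17.4 and 15.8 TPM against 25.7 and 27.7 in MLL1-KO2, a called difference of -0.67 ± 0.15 on the log2 scale (adjusted p = 0.0036), and its part in the differences of the members was not tested. Without MLL1-KO1 replicate 1, CST2, CST3 and CST5 were no longer called, and 3 members remained.

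Between the 2 SIN3A+SIN3B-DKO lines, CST1, CST4 and CST2 were all higher in SIN3A+SIN3B-DKO1, where 2.23% of all genes were called, 1.22% higher and 1.01% lower. The log2 differences were 1.18 ± 0.07 for CST1 (limma adjusted p = 1.9e-06), 0.95 ± 0.14 for CST4 (adjusted p = 0.0018) and 0.63 ± 0.18 for CST2 (adjusted p = 0.046). CST1 was called under all alternatives run. The call of CST2 was lost in 12 of the 14 fits that left out 1 library, with adjusted p up to 0.20. Fitted on the 4 libraries alone, only CST1 was called. CST3 and CST7 differed by 0.16 ± 0.04 and 0.12 ± 0.34, which were not called.

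Between the genotypes, taken as the mean of 2 lines each, CST4 was higher in SIN3A+SIN3B-DKO than in MLL1-KO by 1.37 ± 0.10 on the log2 scale (limma adjusted p = 3.2e-07), whereas CST2 was lower by a difference of -0.66 ± 0.13 (adjusted p = 0.00081). CST7 was called lower as well, at -1.51 ± 0.24 (adjusted p = 0.00019), a direction that rests on MLL1-KO2. Its mean was 9.62 TPM in MLL1-KO2 but 0.265 in MLL1-KO1, below the means of 0.516 and 0.450 in the SIN3A+SIN3B-DKO lines, so that the direction turns for MLL1-KO1. CST5 had 0 reads in all 4 SIN3A+SIN3B-DKO libraries. Its mean in MLL1-KO, through whose libraries alone it could be tested, was 3.09 times a floor of 3 reads in each of them. CST1 and CST3 were at -0.27 ± 0.05 and -0.25 ± 0.03, under the fold minimum. Of all genes tested, 19.9% were called in this comparison, 13% higher and 6.91% lower. The ranges of single libraries overlapped between the genotypes for CST2, CST4 and CST7. CST4 ran from 37.1 to 86.1 TPM in SIN3A+SIN3B-DKO and from 13.0 to 37.3 in MLL1-KO. The standard errors come from the spread between libraries of a line and not between lines. Without MLL1-KO1 replicate 2, which had 19.4 TPM of CST2 against 12.2 in replicate 1, the CST2 difference was -0.50 and under the fold minimum.

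The 3 near copies did not keep a fixed ratio. Their summed level was 39.2 ± 1.58 TPM (SD, n = 2) in parental cells, 456 ± 25.5 and 481 ± 38.9 TPM in the SAP30-KO lines, 237 ± 7.68 and 114 ± 4.74 in the SIN3A+SIN3B-DKO lines, and 85.7 ± 11.4 and 286 ± 13.0 in the MLL1-KO lines, each in the order of the line numbers. The sums were 11.7, 12.3, 6.06, 2.91, 2.19 and 7.30 times the parental sum, in that order of lines.

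Of the reads of the 3 genes, CST4 took 39.1 and 40.9% in parental cells, 27.3 to 28.8% in SAP30-KO, 33.1 to 40.6% in SIN3A+SIN3B-DKO and 11.4 to 17.5% in MLL1-KO. The MLL1-KO libraries had the lowest CST4 shares of the 14 and the highest CST1 shares, from 63.1 to 80.2%, against 49.0 and 49.3% in parental cells. The CST2 share was lowest in SIN3A+SIN3B-DKO, from 5.92 to 9.41%, and it was 10.1 and 11.6% in parental cells and 12.9 to 17.4% in SAP30-KO. In MLL1-KO it separated the lines, with 14.6 and 19.3% for MLL1-KO1 against 8.38 and 9.75% for MLL1-KO2. Shares of different libraries were not tested against each other.

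**Figure D3:**
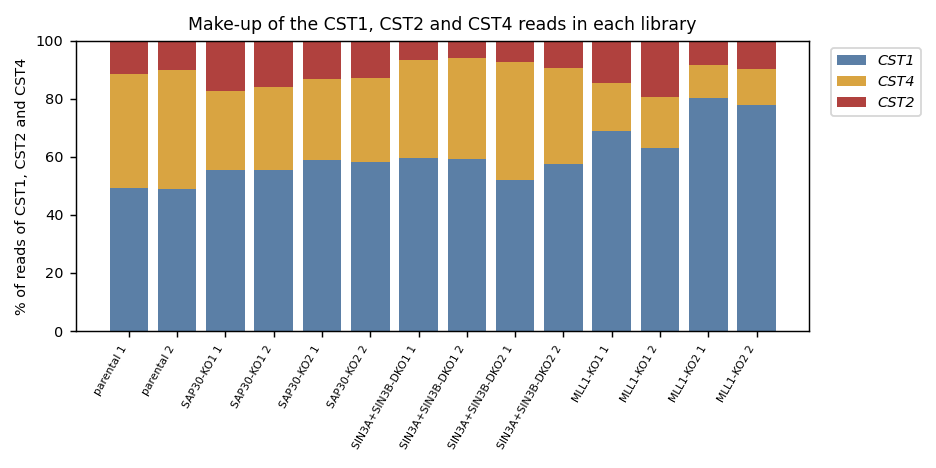
Share of the summed CST1, CST2 and CST4 reads taken by each gene (vertical axis, percent) in each of the 14 libraries (horizontal axis). CST4 falls from 39.1 and 40.9% in parental to 11.4 to 17.5% in the MLL1-KO libraries, where CST1 takes 63.1 to 80.2%.

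The genes around the cluster were compared with it over the 10 nearest tested genes on each side that are not members. Their distances from the cluster ran from -3570.7 to -205.2 kb towards lower coordinates and from 1083.2 to 5751.7 kb towards higher ones. Most were therefore far from the cluster, and genes under the filter on low values were not looked at. None of these 20 was called in either SAP30-KO line, against 15.7 and 15.6% of all genes, and their log2 fold changes ran from -0.50 to 0.39, beside 2.98 to 4.02 for CST1, CST2 and CST4. In both SIN3A+SIN3B-DKO lines 1 of the 20 neighbours was called higher and 1 lower. Of all genes tested, 7.76 and 6% were called higher and 8.66 and 7.56% lower there. The higher one was THBD, the thrombomodulin gene, at 1.03 and 0.77. LINC00261, a long noncoding RNA gene beside FOXA2, was the lower one, at -0.60 and -0.67. In both MLL1-KO lines 3 of the 20 neighbours were called, all lower, where 16.3 and 14.9% of all genes were called lower. They were FOXA2, a forkhead transcription factor gene, at -2.29 and -4.86, LINC00261 at -5.04 and -6.11, and NINL at -0.80 and -1.11. CST7 had the same 20 neighbours, and its nearest one, APMAP, was at -0.10 and 0.03 in the MLL1-KO lines, where CST7 was at -1.27 and 2.48. Around CST6 on chromosome 11, 7 of 20 neighbours were lower and 1 higher in SAP30-KO1, and 5 lower and 1 higher in SAP30-KO2. The higher one was CTSW in both SAP30-KO lines, at 0.84 and 0.94, a gene that is also on the list of enzymes below. Of all genes tested, 7.86 and 8.12% were lower and 7.8 and 7.44% higher in these lines.

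**Figure D4:**
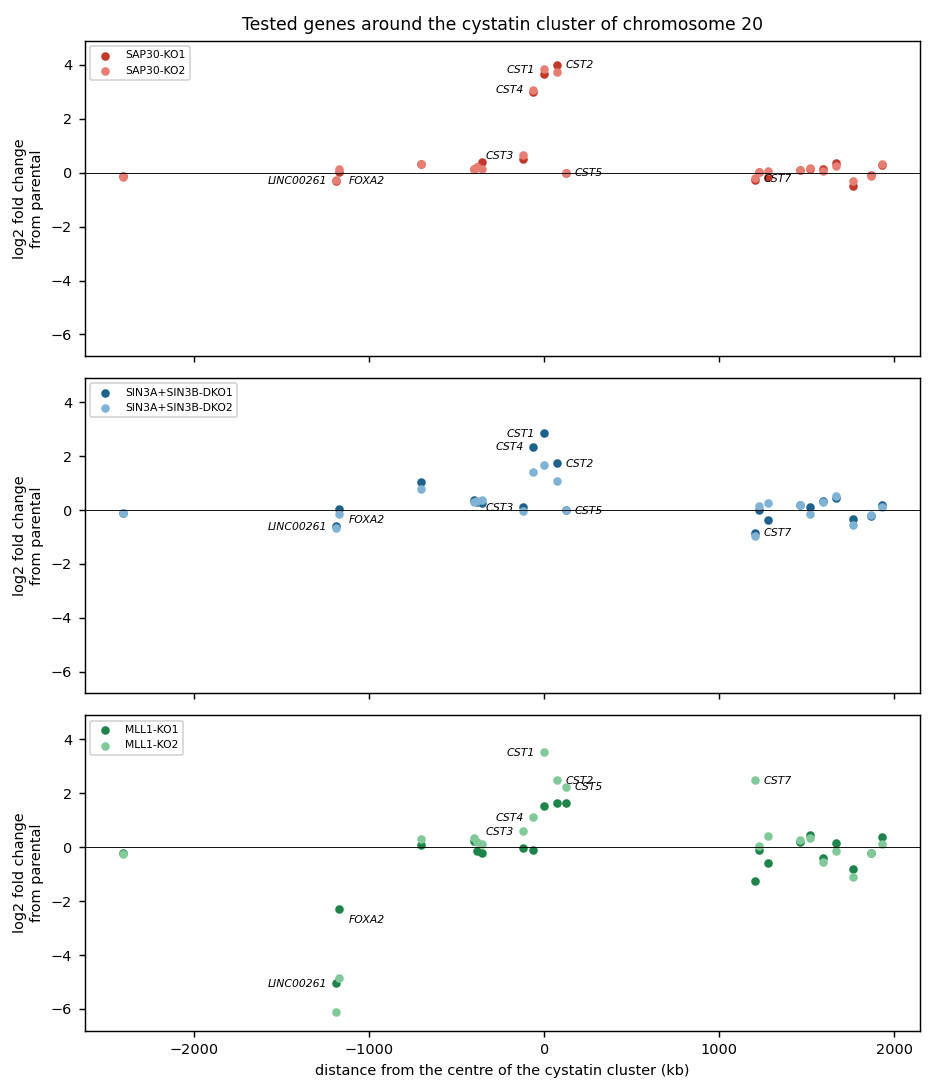
Log2 fold change from parental (vertical axis) of tested genes on chromosome 20 by distance from the centre of the cystatin cluster in kb (horizontal axis, towards higher coordinates to the right), one panel per genotype and one colour per line. CST1, CST2 and CST4 stand 2.98 to 4.02 above 0 in SAP30-KO while the neighbours lie between -0.50 and 0.39, and FOXA2 and LINC00261 lie far below 0 in MLL1-KO.

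Promoter sequence was given for CST3 and CST5, 2 of the 7 members. The 250 bases before the start of each are shown because these were the member with the highest level and one with 0 reads in 10 of 14 libraries. They come from RefSeq on GRCh38.p14, at chr20:23637956-23638205 for CST3 and chr20:23879749-23879998 for CST5, both on the minus strand, and capitals mark each CG.
CST3: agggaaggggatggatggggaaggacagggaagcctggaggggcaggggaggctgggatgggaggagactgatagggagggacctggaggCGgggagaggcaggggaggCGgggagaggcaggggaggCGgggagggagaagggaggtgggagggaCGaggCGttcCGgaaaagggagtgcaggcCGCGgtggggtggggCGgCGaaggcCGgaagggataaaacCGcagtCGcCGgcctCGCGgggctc
CST5: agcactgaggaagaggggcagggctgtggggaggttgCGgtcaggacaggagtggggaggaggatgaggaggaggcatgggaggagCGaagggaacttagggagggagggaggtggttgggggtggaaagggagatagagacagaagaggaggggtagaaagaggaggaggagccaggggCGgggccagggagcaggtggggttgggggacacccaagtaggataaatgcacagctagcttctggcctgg
CST3 had 16 CG in this window and a GC content of 70.8%, and 41.0% of 35116 promoter windows of the same length held at least as many. CST5 had 3 CG and a GC content of 62.4%, and 77.1% of windows held at least as many, with a median of 11. CG reads the same on both strands. This is a description of the sequence, and methylation and binding were not analysed here.

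The cysteine cathepsins and the asparaginyl endopeptidase legumain (LGMN) were read as a whole list of 12 enzymes, all of which were tested. The list holds the known targets of the cystatins, but not every enzyme on it, such as that of CTSW, is an established one. In the SAP30-KO lines CTSF, CTSL1, CTSL2 and CTSW were called higher and no enzyme lower, with log2 fold changes from 0.84 to 1.17, where 7.8 and 7.44% of all genes were called higher. In SIN3A+SIN3B-DKO1 CTSL2 and CTSW were higher and CTSB, CTSH and CTSS lower, where 7.76% of all genes were higher and 8.66% lower. In SIN3A+SIN3B-DKO2 the same 2 were higher and CTSH and CTSS lower, where the shares of all genes were 6 and 7.56%. In MLL1-KO1 CTSL1 and CTSW were higher and CTSC, CTSL2, CTSS, CTSZ and LGMN lower, beside 6.89% of all genes higher and 16.3% lower. In MLL1-KO2 CTSB, CTSF, CTSK, CTSL1, CTSO and CTSW were higher and CTSL2, CTSZ and LGMN lower, beside 10.2 and 14.9% of all genes. The medians of the list over the 6 lines ran from -0.32 to 0.19, and those of all genes tested from -0.09 to 0.03.

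Of the enzymes called lower in both lines of a genotype, LGMN, which some type 2 cystatins inhibit through a site distinct from the one for cathepsins, was at 105 and 104 TPM in parental cells and 52.7 to 72.2 in MLL1-KO. It fell by 0.63 and 0.98 on the log2 scale in MLL1-KO1 and MLL1-KO2 (SE 0.07, limma adjusted p = 9.8e-06 and 2.4e-07). CTSZ, the gene of the carboxypeptidase cathepsin Z, was at 591 and 599 TPM in parental cells and 352 to 386 in MLL1-KO, a fall of 0.65 and 0.73 (SE 0.03, adjusted p = 4.2e-08 and 1.5e-08). CTSH, the gene of the aminopeptidase cathepsin H, was at 36.0 and 40.4 TPM in parental cells and 17.9 to 25.5 in SIN3A+SIN3B-DKO, with log2 fold changes of -1.05 and -0.60 (SE 0.07, adjusted p = 8.2e-07 and 5.8e-05). Cathepsins Z and H trim proteins from their ends, whereas cathepsin S cuts within them. CTSS, the gene of cathepsin S, which is best known from antigen-presenting cells, was at 2.44 and 2.61 TPM in parental cells and 0.502 to 1.23 in SIN3A+SIN3B-DKO, at -0.87 and -1.43 (SE 0.18, adjusted p = 0.0018 and 6.8e-05). CTSF, the gene of cathepsin F, was at 16.2 and 13.0 TPM in parental cells and 25.9 to 32.4 in SAP30-KO, with log2 fold changes of 0.88 and 1.05.

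CTSL1, the table's name for the cathepsin L gene, was called in 4 of the 6 lines. It was at 88.5 and 82.9 TPM in parental cells and was 2.12 and 2.03 times that level on average in the 2 SAP30-KO lines. In the MLL1-KO lines it rose to means of 152 and 172 TPM (limma adjusted p = 2.9e-07 and 5.6e-08). In the SIN3A+SIN3B-DKO lines its means were 123 and 99.8 TPM, and the log2 fold changes of 0.52 and 0.22 were not called.

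CTSL2, the gene of cathepsin V, split the genotypes. It was at 1.16 to 1.56 TPM in parental cells, 2.62 to 3.73 in SAP30-KO, 2.94 to 3.46 in SIN3A+SIN3B-DKO and 0.355 to 0.712 in MLL1-KO. The SIN3A+SIN3B-DKO and MLL1-KO libraries did not overlap, and their difference was 1.92 ± 0.13 on the log2 scale (limma adjusted p = 1.6e-07). CTSW, a cathepsin gene known from cytotoxic lymphocytes, was called higher in all 6 lines. The 6 comparisons share the same parental libraries, and genes called higher in all 6 lines were not counted. It was at 0.644 and 0.881 TPM in parental cells, on 6 and 8 reads, and 13.6 and 13.2 TPM in MLL1-KO2, a rise of 3.47 ± 0.17 on the log2 scale (adjusted p = 1.9e-08), and at 2.56 and 2.02 TPM in MLL1-KO1, a rise of 1.14 ± 0.17 (adjusted p = 0.00014). In the SIN3A+SIN3B-DKO lines it rose by 1.88 and 1.39 (adjusted p = 5.1e-06 and 5.5e-05). CTSW and CST7 were both higher in MLL1-KO2 than in MLL1-KO1, by 2.32 ± 0.17 and 3.75 ± 0.34 on the log2 scale.

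**Figure D5:**
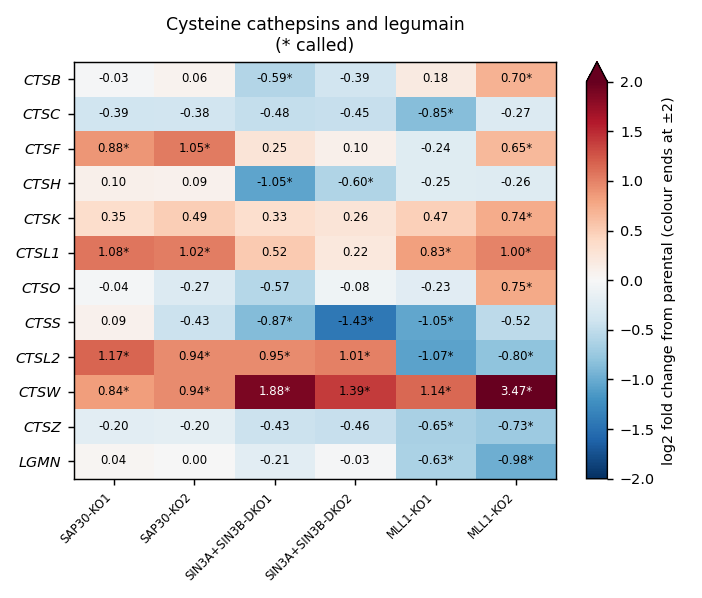
Log2 fold change from parental (colour, ending at 2 in each direction, and printed value) of the 12 cysteine cathepsins and legumain (rows) in the 6 edited lines (columns), with a star on called values. CTSW is called higher in all 6 lines, which share the same parental libraries, and CTSL2 is called higher in 4 and lower in the 2 MLL1-KO lines.

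Of the 11 other cystatin genes on the list, 6 were in the table and 1 was tested. This was CSTB, the gene of the intracellular inhibitor stefin B, which was at 271 to 373 TPM over all libraries and was not called in any line, with log2 fold changes from -0.36 to -0.10. All 6 values were below 0, and the 2 parental libraries, at 373 and 355 TPM, were the highest of the 14.

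The salivary and leukocyte origin of these cystatins in the body was set against markers of those cells. Of 14 salivary gland genes, 9 were in the table and PRH1 alone was tested, and the sum of the 9 was 1.11 to 1.44 TPM in parental, 0.977 to 1.18 in SAP30-KO, 0.946 to 1.64 in SIN3A+SIN3B-DKO and 1.01 to 2.19 in MLL1-KO, with PRB2 at 0 in all 14 libraries. Of 7 leukocyte genes, 6 were in the table and CSF1R alone was tested. Their sum was 0.936 to 1.08 TPM in parental, 4.15 to 4.47 in SAP30-KO, 1.59 to 2.25 in SIN3A+SIN3B-DKO and 2.44 to 3.06 in MLL1-KO, and most of it was CSF1R. The rise of CSF1R moved with that of CST1, CST2 and CST4 in the SAP30-KO lines, and its part in that result was not tested. CSF1R was also called higher in SIN3A+SIN3B-DKO2 and in both MLL1-KO lines. In MLL1-KO2 it was at 2.83 to 2.96 TPM against 0.523 to 0.716 in parental cells, a rise of 1.61 ± 0.14 on the log2 scale (limma adjusted p = 1.7e-06), and in MLL1-KO1, where CST7 was low, the rise was 1.51 ± 0.14 (adjusted p = 3.2e-06). Its part in the CST7 values was not tested. In MLL1-KO2, where CST7 was high, the pan-leukocyte gene PTPRC had 5 and 3 reads against 22 and 19 in parental cells, and CD3E and ITGAM had 0.

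The genes whose levels followed each member most closely were named by Pearson's r of log2(TPM + 0.5) over the 14 libraries, as a description. For CST2 they were SOD3, LRRC41 and ISG15, with r of 0.98, 0.96 and 0.96, and for CST1 they were MAST2, TMCC2 and SOX12, each at 0.95. CST1 was number 26 in the order of likeness to CST2, at 0.91, ahead of CST3 at 0.85 and CST4 at 0.79. CST4 was closest to MAD1L1, GNA12 and HECTD3, each at 0.97, and CST3 to PBXIP1, DBP and TIMP1, from 0.96 to 0.97. CST5 was closest to LOC654433, ISM1 and PTK2B, each at 0.99, which rests on 4 libraries above 0, and CST7 to CARHSP1, CCNI and MANBA, from 0.94 to 0.95. The 14 points are 7 conditions with 2 libraries each, so libraries of a line share their source.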

How the data were processed

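The authors prepared poly(A) libraries with the KAPA mRNA Hyper Prep kit and sequenced them on a NextSeq instrument. The submitters' processing notes name FastQC 0.11.2, TopHat, featureCounts and hg19, and the annotation, strand setting and treatment of multi-mapping reads are not given in the sources used here. The authors deposited 1 table of 19410 genes by 14 libraries, not pooled, as RPKM. Every library added up to 1000000, so the deposited values were treated as TPM, which hide differences in total RNA. Whole reads, worked back from the smallest steps between values for 18518 of 18519 genes above 0 (99.99%, within 0.01 reads), were used for read counts and for 1 alternative test.

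Genes of at least 1 TPM in at least 2 libraries (13540) were taken as log2(TPM + 0.5). The fit was made in limma 3.58.1 (R 4.3.3), with a mean for each of the 7 conditions, all 14 libraries and a variance trend (7 residual and 3.6 prior degrees of freedom). Benjamini-Hochberg adjustment ran over all genes within a comparison, and a call needed an adjusted p under 0.05 and a 1.5-fold change. The design had assumed RPKM, and the same test was kept. All 7 members were named whatever their values, and the enzymes, other cystatins, markers and neighbours were read as whole lists, with values for enzymes called in both lines of a genotype or changed most. The members and lists were chosen with earlier results of these data known. Gene positions come from GENCODE on GRCh37, where 18113 genes were placed, and promoters from RefSeq on GRCh38.p14. Identities used Biopython 1.88. The fit was tested on simulated data, where 95 of 98 changes of 2-fold and 101 of 102 of 4-fold were called right. Changes were simulated only in genes with more reads than CST2, CST5 or CST7 had in parental cells. The same dispersion was used for all genes, so the simulation does not cover calls from such low reads. Libraries of a line differed by more than counting noise, chi-square per degree of freedom running from 1.47 to 8.00. Intervals and floors of 3 reads cover counting error only, and reads carry no molecular identifiers. Alternatives were other pseudocounts (0.1 and 1), no filter, no fold minimum, other scalings, a local chromosome level from 51 genes, voom on reads, a replicate block, fits on the compared libraries only and leaving out each library.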

Additional observations from a re-analysis of the deposited data

Results flagged for a closer look

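Some differences between lines of one genotype, or between genotypes, were themselves past the threshold in the limma fit. Between the MLL1-KO lines, CST1, CST2, CST3, CST4, CST5 and CST7 differed, with log2 differences of MLL1-KO1 minus MLL1-KO2 of -2.01, -0.84, -0.62, -1.21, -0.60 and -3.75. CST5 had passed the filter only through these libraries. Between the SIN3A+SIN3B-DKO lines, CST1, CST2 and CST4 differed by 1.18, 0.63 and 0.95, higher in SIN3A+SIN3B-DKO1. Between the genotypes, SIN3A+SIN3B-DKO minus MLL1-KO, the differences were 1.37 for CST4, -0.66 for CST2 and -1.51 for CST7, the last resting on MLL1-KO2.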

How the results depend on the processing

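For members outside the SAP30-KO comparisons, 420 values were taken under 10 alternative settings. Of these, 396 stayed called in the same direction or stayed uncalled, 19 were no longer called and 5 became called. None changed direction while called, but uncalled values could, as CST3 in MLL1-KO1 did, from -0.03 to 0.07. With 1 library left out, 561 of 588 stayed called in the same direction or stayed uncalled. Both tallies include CST5, which had 0 reads in all parental and SIN3A+SIN3B-DKO libraries. Its comparisons among those were bound to stay uncalled, and it passed the filter only through the MLL1-KO libraries, so its differences there were fixed as well. Fitted on the 4 libraries compared, 1 member differed between the SIN3A+SIN3B-DKO lines in place of 3, and 54 of all genes in place of 302. With 1 library left out, from 3 to 6 members differed between the MLL1-KO lines. With no fold minimum, 7, 7, 10 and 8 enzymes were called in SAP30-KO1, SAP30-KO2, SIN3A+SIN3B-DKO1 and SIN3A+SIN3B-DKO2, in place of 4, 4, 5 and 4. The counts of all genes then rose from 2120, 2108, 2224, 1837, 3143 and 3408 to 6904, 6997, 7589, 6714, 8188 and 8692 in the 6 lines, from 2695 to 9185 between the genotypes, from 302 to 1693 between the SIN3A+SIN3B-DKO lines and from 1411 to 5694 between the MLL1-KO lines. Quantile normalization moved the median of all genes in MLL1-KO1 by 0.12. Same-numbered libraries did not deviate together (r from -0.07 to 0.08 over 21 pairs of groups), so they share only a number. With the replicate block, 3, 4, 4, 4, 4 and 6 members were called in the 6 lines, 4 between the genotypes, and 3 and 6 between lines of a genotype. The added call was CST7 in SIN3A+SIN3B-DKO1 (limma adjusted p = 0.016, against 0.016 to 0.14 over its alternatives). At this depth CST5, CST6 and CST7 rest on at most 12, 5 and 67 reads in a library.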
